A study of Homo sapiens with 6 samples.

Results

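ADA, RRM1, RRM2, TYMS, TK1, DUT, DCK, SAMHD1 and CAD, 9 genes for enzymes that make, salvage or break down nucleotides, were followed in RNA sequencing data of BxPC-3, an established cell line from a human pancreatic cancer. They were taken by gene symbol, 9 of the 26255 symbols in the data, and all 9 were among the 12040 genes that entered the fit, for which the average of the 6 libraries had to reach 1 FPKM. These genes were selected on their measured values in these libraries, so their levels and differences are a description and no p-value is given for them. There were 3 groups of 2 libraries each. Parent cells had no treatment, and the others were transfected with NC-1, a negative control for the miRNA, or with miR-4711-5p. RNA was compared at 36 h from transfection. The difference of NC-1 from Parent holds both the transfection and the control RNA, which cannot be told apart. All groups came from the same line, and neither the labels nor the methods say that the 2 libraries of a group came from separate cultures, so p-values measure only the spread between these libraries. FPKM is the number of fragments assigned to a gene scaled to the exon length of that gene and to the library size. The values of a library summed to 550772 and 543074 in Parent, 515688 and 515348 in NC-1, and 493145 and 499659 with miR-4711-5p. These sums did not overlap between the groups, and the cause was not tested. Depth in reads is unknown. All 7 listed markers of ductal epithelium were expressed in every library, from 14.6 FPKM for MUC1 to 1842 for KRT7. Of these, KRT19, MUC1 and CDH1 were lower with miR-4711-5p against both controls, with log2 fold changes of -0.85 ± 0.05, -0.96 ± 0.09 and -1.93 ± 0.05 against Parent (limma adjusted p = 2.58e-05, 0.000251 and 2.81e-06), and KRT18 was higher against both. Of the 5 acinar and islet markers, only PRSS1 passed the filter, with 0.684 and 1.57 FPKM in Parent, 2.73 and 2.62 in NC-1 and 3.18 and 5.10 with miR-4711-5p (log2 1.28 ± 0.23 for miR-4711-5p and 0.82 ± 0.23 for NC-1, both against Parent, limma adjusted p = 0.00427 and 0.039), and of the 6 stromal markers only COL1A1 did, at 1.24 to 2.35 FPKM and not called. In the blood cell list, MS4A1 and TYROBP were listed at 0 in every library and PTPRC reached at most 0.0253 FPKM, while SMAD4 and CDKN2A, which are known to be deleted in this line, were listed at 0 in all 6. Of the 13 blood cell markers, 3 passed the filter, LAPTM5 (160 to 277 FPKM), CORO1A (16.5 to 44.7) and CD14 (0.897 to 2.18). CD14 was not called in any comparison, and LAPTM5 and CORO1A had lower FPKM in the miR-4711-5p libraries than in those of Parent (log2 -0.64 ± 0.04 and -1.25 ± 0.07, limma adjusted p = 2.43e-05 and 2.41e-05).

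Cells build DNA from deoxynucleotides, which they obtain either by reducing ribonucleotides or by salvaging deoxynucleosides. Ribonucleotide reductase, made of a large (RRM1) and a small (RRM2) subunit, carries out the reduction, and it is also a known target of gemcitabine, a nucleoside drug for pancreatic cancer. TYMS, TK1 and DUT feed the thymidylate branch, DCK phosphorylates deoxycytidine and gemcitabine, CAD starts pyrimidine synthesis, SAMHD1 hydrolyses deoxynucleotides, and ADA deaminates adenosine and deoxyadenosine. Many of these genes are transcribed most strongly when cells copy their DNA, and SAMHD1 is known as a gene that interferon can induce in some cell types.

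On GRCh37, the canonical transcripts of ADA at chr20:43248163-43280340, SAMHD1 at chr20:35518632-35580111 and TK1 at chr17:76170172-76183133 were annotated on the minus strand. On the plus strand were RRM1 at chr11:4116029-4160162, RRM2 at chr2:10262866-10271541, TYMS at chr18:657653-673578, DUT at chr15:48623626-48635570, DCK at chr4:71859366-71896631 and CAD at chr2:27440237-27466811.

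A miRNA pairs with its targets mainly through its seed, bases 2 to 8 from the 5′ end. The mature sequence below is from RefSeq (GRCh38.p14, chr1:59733269-59733291, minus strand), is 23 bases long and has the seed in capitals. The seed pairs with CTGATGC (a 7mer-m8 site), TGATGCA is the 7mer-A1 site, and CTGATGCA, the 8mer, holds both.
hsa-miR-4711-5p: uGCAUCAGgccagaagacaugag

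Each of these sites was searched in the 3′ UTR of the canonical transcript of every gene (GENCODE v44 on GRCh37, the build of hg19). Of the 9 genes, 2 had a site there, ADA and SAMHD1, which had the lowest and the highest log2 fold change of the 9. The sites are shown because these genes stood at opposite ends, with the pairing bases in capitals. That of ADA lay at chr20:43248356-43248362 on the minus strand, from base 113 of a 3′ UTR of 312 bases, and that of SAMHD1 at chr20:35519825-35519831 on the minus strand, from base 1504 of 2703.
ADA, 7mer-m8 site in the 3′ UTR: atagtcagttaCTGATGCtcctgaaccct
SAMHD1, 7mer-m8 site in the 3′ UTR: tgtcttctgctCTGATGCtccccggacta

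The ADA site was also in the 3′ UTR of 21 of its 24 other coding transcripts, and that of SAMHD1 in 2 of 5. A site of this kind was present in 1898 of the 11148 tested genes with a 3′ UTR in the annotation, or 17.0%, and in 5 of the 68 tested genes of the wider list described further on. RRM1, RRM2 and CAD had a 7-base match before the stop codon, at base 763, 811 and 6725 of the transcript. A match is a description of the sequence, and whether any of these sites is bound was not measured. The matches before the stop codon are shown for comparison.
RRM1, 7mer-A1 match: aaagaagacatTGATGCAgcaattgaaac
RRM2, 7mer-m8 match: agaaacgaggaCTGATGCctggcctcaca
CAD, 7mer-A1 match: gaagatggtggTGATGCAcccgatgcccc

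ADA had the lowest level of the 9 genes with miR-4711-5p and the largest decrease, while its level in NC-1 was slightly above that in Parent. Its FPKM was 14.0 and 14.8 in the Parent libraries, 16.7 and 17.0 in the NC-1 libraries, and 3.57 and 4.34 in the miR-4711-5p libraries. The groups did not overlap. The mean with miR-4711-5p, 3.96 ± 0.547 FPKM (SD, n = 2), was 27.5% of the Parent mean of 14.4 ± 0.591 and 23.5% of the NC-1 mean of 16.9 ± 0.252. On the log2(FPKM + 1) scale, which understates differences at low FPKM, the limma fold change was -1.64 ± 0.08 (SE) against Parent, -1.85 ± 0.08 against NC-1 and 0.22 ± 0.08 for NC-1 against Parent. Among the 12040 tested genes, ordered from the largest decrease, ADA was number 31 against Parent and number 17 against NC-1. PKIG, which lies on the opposite strand and overlaps the ADA locus at its 3′ end, had 12.4 and 11.8 FPKM in Parent, 13.0 and 12.9 in NC-1, and 16.5 and 14.8 with miR-4711-5p, its highest values.

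None of the other enzymes of adenosine was called lower against both controls. PNP, the phosphorylase that acts on inosine after ADA, had 75.5 and 76.7 FPKM in Parent, 69.9 and 69.1 in NC-1, and 72.4 and 77.1 with miR-4711-5p, and did not pass the limma threshold in any of the 3 comparisons. ADK, which phosphorylates adenosine, was 88.3% of its Parent level with miR-4711-5p (log2 -0.18 ± 0.06, limma adjusted p = 0.0474) and 99.7% of its NC-1 level (adjusted p = 0.944). The call of ADK against Parent held in 5 of 14 alternative settings and was lost without any 1 library but the second with miR-4711-5p. ADAL, a relative of ADA that acts on modified adenosine nucleotides, was between 3.07 and 4.10 FPKM in the 6 libraries and was not called. CECR1, now named ADA2, the secreted deaminase, did not exceed 0.0228 FPKM, and DPP4, the cell surface protein that binds ADA, did not exceed 0.209. Of the adenosine receptors, ADORA2B alone was expressed, at 20.3 to 23.6 FPKM, while ADORA1, ADORA2A and ADORA3 did not exceed 0.177. Ratios within a library do not depend on the scale of the library. Those to ADA use the values that chose ADA, so they restate its decrease and are a description. The ratio of PNP to ADA was 5.40 and 5.18 in Parent, 4.19 and 4.06 in NC-1, and 20.3 and 17.8 with miR-4711-5p, and that of ADK to ADA went from 2.39 and 2.37 in Parent and 1.81 and 1.79 in NC-1 to 8.05 and 7.29.

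SAMHD1 was the gene that was higher with miR-4711-5p than in both controls. Its FPKM was 13.2 and 12.9 in Parent, 15.1 and 14.1 in NC-1, and 46.2 and 42.2 with miR-4711-5p. Both miR-4711-5p libraries were above the 4 control libraries, and the mean was 3.38 times that of Parent and 3.02 times that of NC-1. The log2 fold change was 1.68 ± 0.06 against Parent, 1.53 ± 0.06 against NC-1, and 0.15 ± 0.06 for NC-1 against Parent, which placed SAMHD1 at number 59 and number 48 from the largest increase among all tested genes. Interferon markers moved in the same direction. Of the 10 listed, all but IRF7 passed the filter, and all 9 were higher with miR-4711-5p against Parent (median log2 fold change 1.95) and against NC-1 (1.67), and 6 of the 9 in NC-1 against Parent (0.26), beside 18.7%, 18.4% and 12.1% of all tested genes. Their summed FPKM was 366 to 383 in Parent, 416 to 426 in NC-1 and 1455 to 1611 with miR-4711-5p, and their part in the level of SAMHD1 was not tested.

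RRM1 and RRM2, the subunits of ribonucleotide reductase, were lower with miR-4711-5p, but most of the difference from Parent was also present in NC-1. RRM1 had 59.9 and 62.2 FPKM in Parent, 45.7 and 47.5 in NC-1, and 38.8 and 42.6 with miR-4711-5p. The 3 groups were stepwise lower without overlap, and the mean with miR-4711-5p was 66.7% of Parent and 87.3% of NC-1. RRM2 had 38.3 and 38.9 FPKM in Parent, 31.6 and 33.3 in NC-1, and 29.5 and 30.2 with miR-4711-5p, which was 77.3% of Parent and 91.8% of NC-1. The log2 fold change of RRM1 was -0.57 ± 0.06 against Parent, -0.19 ± 0.06 against NC-1 and -0.38 ± 0.06 for NC-1 against Parent. For RRM2 the same 3 values were -0.36 ± 0.05, -0.12 ± 0.05 and -0.24 ± 0.05. RRM2B, the alternative small subunit that p53 can induce, lay between 4.57 and 5.67 FPKM and was not called in any comparison. Within a library, RRM1 exceeded RRM2 by 1.56 and 1.60 times in Parent, by 1.45 and 1.43 times in NC-1 and by 1.31 and 1.41 times with miR-4711-5p. In RNA from bulk cells, fewer dividing cells and less RNA per cell cannot be told apart.

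**Figure D1:**
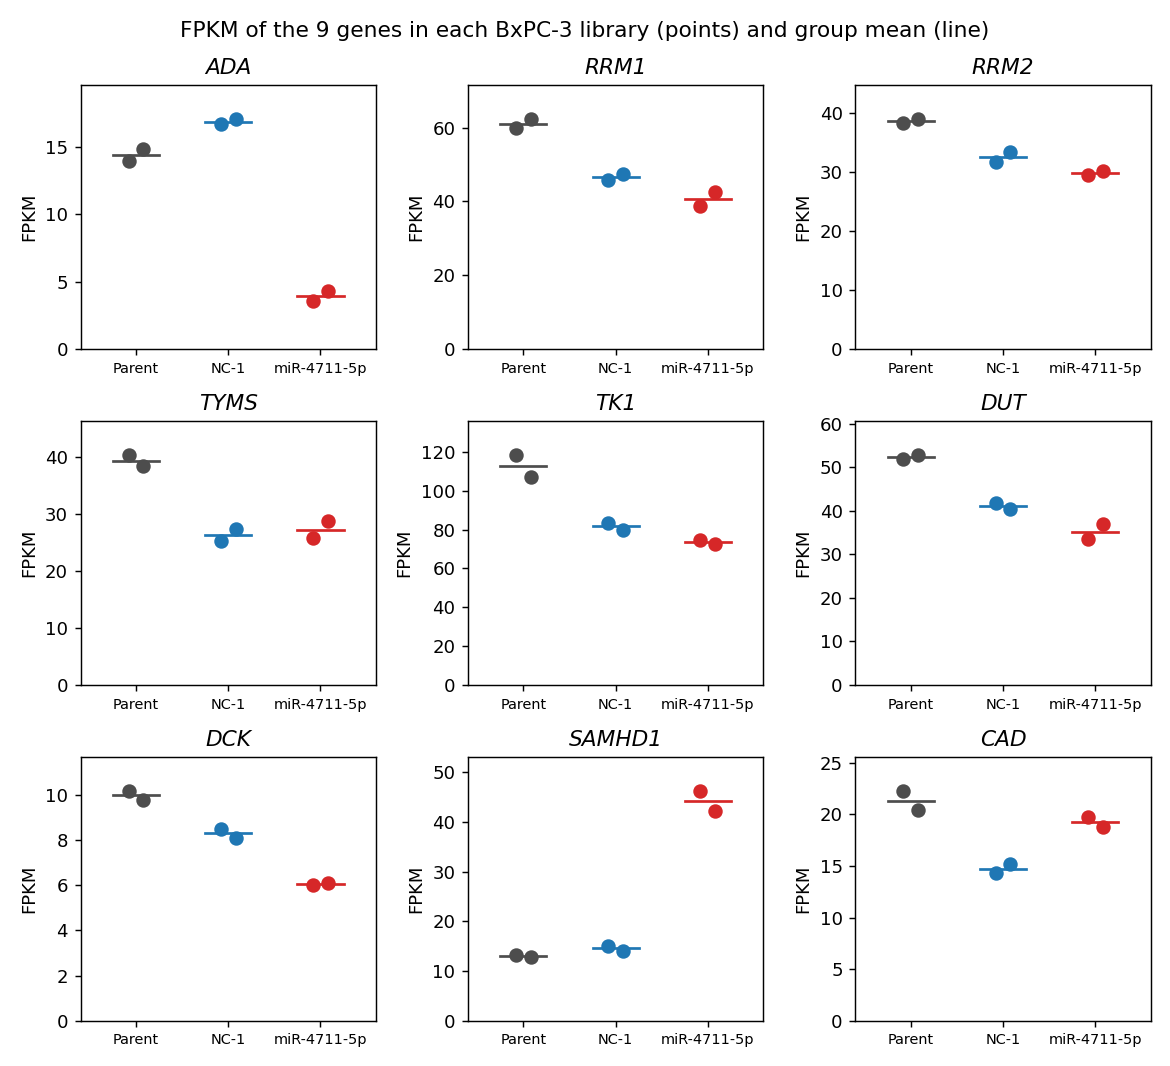
FPKM (y axis, from 0) of the 9 genes in the Parent, NC-1 and miR-4711-5p libraries (x axis), with a point per library and a line at the mean of each group of 2. With miR-4711-5p, ADA was 3.57 and 4.34 FPKM and SAMHD1 46.2 and 42.2, apart from all 4 control libraries, whereas TYMS and CAD with miR-4711-5p lay within the range of the controls.

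The genes of the thymidylate branch were lower in both treated groups than in Parent. TK1, the cytosolic thymidine kinase, had the highest FPKM of the 9 genes, with 118 and 107 in Parent, 83.6 and 79.7 in NC-1, and 74.8 and 72.7 with miR-4711-5p. DUT, which removes dUTP and supplies dUMP, had 52.0 and 52.7 in Parent, 41.8 and 40.5 in NC-1, and 33.4 and 37.0 with miR-4711-5p. For both genes the miR-4711-5p libraries were below all 4 controls. TYMS, which makes thymidylate from dUMP, differed from these, with 40.4 and 38.5 FPKM in Parent, 25.2 and 27.3 in NC-1, and 25.7 and 28.9 with miR-4711-5p. Its NC-1 and miR-4711-5p libraries overlapped, and its log2 fold change was -0.52 ± 0.07 against Parent, 0.05 ± 0.07 against NC-1 and -0.57 ± 0.07 for NC-1 against Parent. The 3 values were -0.60 ± 0.06, -0.14 ± 0.06 and -0.46 ± 0.06 for TK1, and -0.56 ± 0.06, -0.22 ± 0.06 and -0.34 ± 0.06 for DUT. TYMS reads may include those of ENOSF1, which overlaps its 3′ end on the opposite strand and had 11.4 and 11.2 FPKM in Parent, 8.87 and 8.69 in NC-1, and 9.06 and 9.53 with miR-4711-5p. The libraries were stranded, but the sources used here do not say whether the counting used strand. Pseudogenes that carry the name of the gene number 8 for DUT, 3 for RRM2 and 2 for TYMS in the annotation, and reads shared with them were not measured.

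DCK was the gene whose decrease against NC-1 was larger than the difference between NC-1 and Parent, apart from ADA. Its FPKM was 10.2 and 9.77 in Parent, 8.50 and 8.08 in NC-1, and 6.0 and 6.07 with miR-4711-5p. The 3 groups did not overlap, and the miR-4711-5p mean was 60.6% of Parent and 72.8% of NC-1. MOB1B overlaps the DCK locus on the same strand. It had 2.65 and 2.92 FPKM in Parent, 3.62 and 3.31 in NC-1, and 3.02 and 2.53 with miR-4711-5p. Reads that these genes may share were not measured. The log2 fold change of DCK was -0.64 ± 0.06 against Parent, -0.40 ± 0.06 against NC-1 and -0.24 ± 0.06 for NC-1 against Parent. CDA and SLC29A1, which also handle nucleoside drugs, were lower in NC-1 than in Parent. CDA, which deaminates and inactivates gemcitabine, had 40.7 and 38.9 FPKM in Parent, 25.7 and 27.5 in NC-1, and 30.8 and 27.4 with miR-4711-5p, and its NC-1 and miR-4711-5p libraries overlapped. Relative to Parent it was lower in NC-1 (log2 -0.56 ± 0.07, limma adjusted p = 0.00237) and with miR-4711-5p (-0.44 ± 0.07, adjusted p = 0.00205), and was not called against NC-1 (0.12 ± 0.07, adjusted p = 0.188). SLC29A1, the equilibrative nucleoside transporter that brings gemcitabine into cells, was lower in NC-1 than in Parent (-0.43 ± 0.06, adjusted p = 0.00367). Against NC-1 it was higher with miR-4711-5p (0.29 ± 0.06, adjusted p = 0.00751), and without the second miR-4711-5p library this call was lost. TK2, the mitochondrial thymidine kinase, had 6.85 and 8.12 FPKM with miR-4711-5p against 8.04 to 9.19 in the 4 controls, and its call against NC-1 (adjusted p = 0.0356) held in 7 of 14 alternatives, being lost without any 1 library but the second with miR-4711-5p.

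CAD, the enzyme for the opening steps of pyrimidine synthesis, had the opposite relation to the controls. Its FPKM was 22.3 and 20.4 in Parent, 14.3 and 15.2 in NC-1, and 19.7 and 18.8 with miR-4711-5p. The miR-4711-5p libraries lay between those of NC-1 and those of Parent, overlapping neither. The log2 fold change was -0.14 ± 0.06 against Parent, 0.36 ± 0.06 against NC-1, and -0.50 ± 0.06 for NC-1 against Parent. DHODH, a later enzyme of the same pathway, was also lowest in NC-1, with 3.94 and 3.71 FPKM in Parent, 2.73 and 2.58 in NC-1, and 3.99 and 4.23 with miR-4711-5p, above both Parent libraries, and was higher with miR-4711-5p than in NC-1 (0.48 ± 0.08, limma adjusted p = 0.00326). UMPS, which completes UMP synthesis, was instead lower with miR-4711-5p, at 9.08 and 9.71 FPKM against 10.6 to 12.3 in the 4 controls. Its adjusted p was 0.00772 against Parent and 0.0337 against NC-1, and the call against NC-1 held in 7 of 14 alternatives, being lost without any 1 library but the second of NC-1. Without the first miR-4711-5p library, that against Parent was lost too.

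Against Parent, limma at an adjusted p of 0.05 placed 7 of the 9 genes lower and 1, SAMHD1, higher with miR-4711-5p, where 24.7% of all tested genes were lower and 18.7% higher. Against NC-1, 4 were lower (ADA, RRM1, DUT and DCK) and 2 higher (SAMHD1 and CAD), where 21.2% of all genes were lower and 18.4% higher. For NC-1 against Parent, 7 were lower, all but ADA and SAMHD1, where 15.1% of all genes were lower and 12.1% were higher. On a scale set on genes of at least 10 FPKM, 18.9% of all genes were lower and 25.3% higher against Parent, and 9.98% lower and 16.6% higher in NC-1 against Parent. The same values chose the genes, so nothing is read from these counts. The comparisons share libraries and are not independent of each other. Calls of small differences depended on single settings: against NC-1, that of RRM1 held in 6 and that of DUT in 11 of 14 alternatives, and that of DCK in NC-1 against Parent in 5 of 14. RRM1 lost its call when either Parent library, either NC-1 library or the first miR-4711-5p library was left out, DUT without either NC-1 library or the first miR-4711-5p library, and DCK when any 1 of the 6 libraries was left out. RRM2 in NC-1 against Parent lost its call without the first Parent or the first NC-1 library, and TK1 against NC-1 gained one without the second Parent library. Over the 14 alternatives, the log2 fold change of ADA was -1.84 to -1.52 against Parent and -2.07 to -1.74 against NC-1. That of SAMHD1 was 1.62 to 1.75 against Parent and 1.47 to 1.59 against NC-1. These ranges come from the values that chose the genes and are a description.

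**Figure D2:**
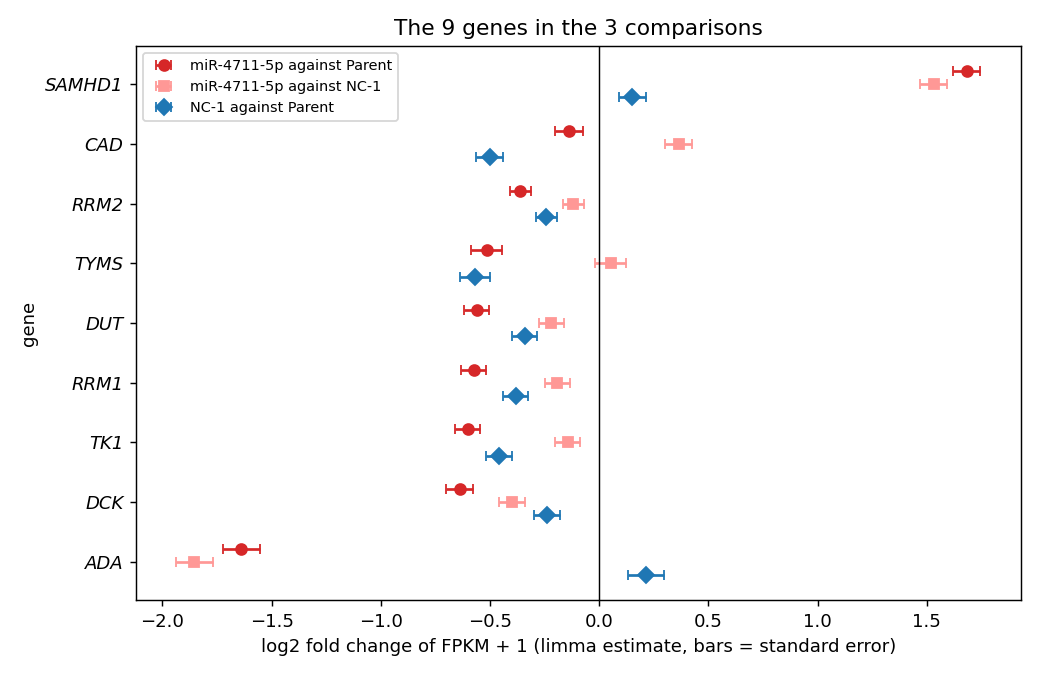
Limma log2 fold change of FPKM + 1 (x axis, bars are standard errors) of each of the 9 genes (y axis) in the 3 comparisons, of miR-4711-5p with each control and of the controls with each other. ADA (-1.64 and -1.85) and SAMHD1 (1.68 and 1.53) had large values against both controls and small ones between the controls, whereas TYMS was at -0.52 against Parent and 0.05 against NC-1.

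The order of the 9 genes by FPKM, which is scaled to exon length, differed between the groups. Comparison between genes is limited by the reads that some may share with overlapping genes or pseudogenes, which were not measured. In Parent it ran from TK1 (mean 113 FPKM) over RRM1 (61.1), DUT (52.3), TYMS (39.4), RRM2 (38.6), CAD (21.3), ADA (14.4) and SAMHD1 (13.1) to DCK (9.96), and only TYMS and RRM2 overlapped among neighbours. With NC-1, RRM2 stood above TYMS and ADA above CAD, and only CAD and SAMHD1 overlapped. With miR-4711-5p, SAMHD1 (44.2) came directly after TK1 (73.8) and overlapped with RRM1 (40.7), and ADA (3.96) was last, below DCK (6.04). The ratio of SAMHD1 to RRM2, an enzyme that breaks deoxynucleotides down and a subunit of the enzyme that makes them, was 0.345 and 0.332 in Parent, 0.478 and 0.424 in NC-1, and 1.57 and 1.40 with miR-4711-5p. The ratio was above 1 only in the libraries with miR-4711-5p.

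**Figure D3:**
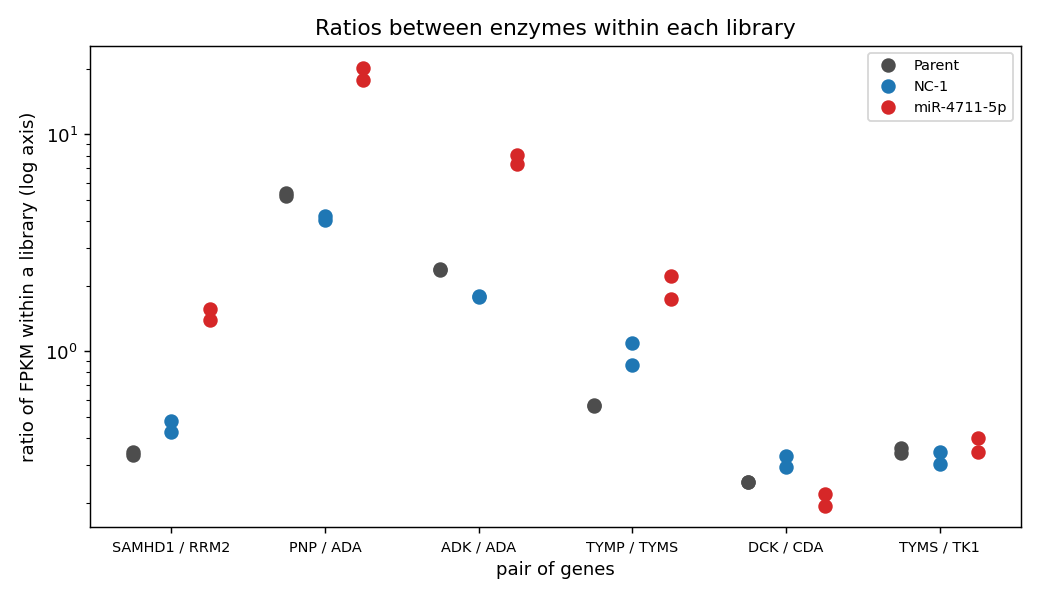
Ratios of FPKM between pairs of enzymes (x axis) within each library on a log axis, with a point per library. SAMHD1 / RRM2, PNP / ADA, ADK / ADA and TYMP / TYMS were higher in both miR-4711-5p libraries than in all 4 controls, and TYMS / TK1 lay between 0.302 and 0.397 in all 6 libraries.

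To place these genes in their pathways, 85 other genes of nucleotide metabolism were listed by function, none of them among the 9, and 68 passed the filter. Against Parent, 31 were lower and 9 higher with miR-4711-5p, or 45.6% and 13.2% of the 68, beside 24.7% and 18.7% of all tested genes (median log2 fold change -0.13, and -0.01 for all). Against NC-1, 12 were lower and 14 higher, or 17.6% and 20.6%, beside 21.2% and 18.4% of all genes (median -0.05, and 0.00 for all). In NC-1 against Parent 27 were lower and 4 higher, or 39.7% and 5.88%, beside 15.1% and 12.1% (median -0.16, and -0.01). On the scale set on genes of at least 10 FPKM, 20 were lower than Parent with miR-4711-5p, beside 18.9% of all genes. Without a filter on low values, 7 of 81 were lower than NC-1, beside 11.7% of all genes. In all, 9 genes were lower and 6 higher against both controls while the values of both miR-4711-5p libraries fell outside those of all 4 controls, which held for 1860 (15.4%, lower) and 1207 (10%, higher) of the 12040 tested genes. The number lower than Parent was 20, 16 or 15 when the second Parent, the first miR-4711-5p or the second miR-4711-5p library was left out. The number lower than NC-1 was 5, 4 or 6 without the first NC-1 library or the first or second miR-4711-5p library, and that of NC-1 against Parent 14 without the first Parent or the second NC-1 library.

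Of the 13 tested genes of purine synthesis, 10 were lower with miR-4711-5p against Parent, where 24.7% of all tested genes were lower, and the other 3 did not pass. The 10 became 5 on the scale set on genes of at least 10 FPKM, 6 without a variance trend, 4 without the second Parent library and 3 without either miR-4711-5p library. Against NC-1, 2 were lower and 2 higher, beside 21.2% and 18.4% of all tested genes, and leaving out any 1 library took at least 1 of these counts to 1. IMPDH1, an isoform of the enzyme that commits IMP to guanine nucleotides, had 98.0 and 85.2 FPKM in Parent and 81.4 and 81.5 in NC-1. With miR-4711-5p it had 64.5 and 68.2 (limma adjusted p = 0.00189 against Parent and 0.0137 against NC-1). The other isoform, IMPDH2, averaged 147 FPKM in Parent, 124 in NC-1 and 124 with miR-4711-5p. It was lower than Parent (adjusted p = 0.00521) and not called against NC-1 (adjusted p = 0.996). PPAT, the entry enzyme of purine synthesis, had 12.2 to 13.7 FPKM in the 4 controls and 10.6 and 10.4 with miR-4711-5p (adjusted p = 0.0124 and 0.00756). The call of PPAT against Parent was lost without the second Parent library or either miR-4711-5p library and that against NC-1 without the second, while that of IMPDH1 against NC-1 was lost without either NC-1 library or the first miR-4711-5p library. In purine salvage and breakdown, 2 of 10 genes were higher and 3 lower against Parent, beside 18.7% and 24.7% of all tested genes. The 3 became 0 without the first miR-4711-5p library and 1 without the second Parent, either NC-1 or the second miR-4711-5p library, and the 2 became 1 without the first Parent or the second miR-4711-5p library. The 3 also became 1 on the scale set on genes of at least 10 FPKM and without a filter. The same held without a variance trend and with only the 2 groups compared. AMPD2, an AMP deaminase, was higher at 19.1 and 19.6 FPKM against 12.6 to 13.6 in the controls (log2 0.53 ± 0.06 and 0.56 ± 0.06, adjusted p = 0.000417 and 0.000375). AMPD3, another AMP deaminase, was higher than Parent (0.32 ± 0.07, adjusted p = 0.0119) but lower than NC-1 (-0.26 ± 0.07, adjusted p = 0.027). These calls of AMPD3 held in 12 and 10 of 14 alternatives. XDH, which makes uric acid, was lower at 5.37 and 5.67 against 6.57 to 7.92 (adjusted p = 0.0166 and 0.00203), and its call against Parent was lost without the second Parent library or either miR-4711-5p library.

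Of 10 genes of the folate cycle, which supplies the methylene group that TYMS uses, 7 were lower than Parent with miR-4711-5p and 7 in NC-1, beside 24.7% and 15.1% of all tested genes. The count in NC-1 was 4 without the first Parent or the second NC-1 library. FPGS, which retains folates in the cell, and MTHFD1, a trifunctional folate enzyme, were lower against both controls, with limma log2 values of -0.57 ± 0.06 and -0.48 ± 0.05 against Parent and -0.27 ± 0.06 and -0.16 ± 0.05 against NC-1 (adjusted p = 0.0121 and 0.039). Their calls against NC-1 held in 11 and 6 of the 14 alternatives, and were lost without either miR-4711-5p library, the first NC-1 library and, for MTHFD1, the second. DTYMK, the kinase that follows TYMS and TK1, was lower against Parent (-0.34 ± 0.05, adjusted p = 0.0018) and not called against NC-1 (-0.05 ± 0.05, adjusted p = 0.434), as with TYMS.

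Among genes that were higher, CMPK2, a mitochondrial nucleotide kinase known as interferon-inducible, had the largest difference, with 0.948 and 0.920 FPKM in Parent, 2.38 and 2.34 in NC-1, and 9.16 and 7.24 with miR-4711-5p. Its 3 groups did not overlap, and the log2 difference with miR-4711-5p came to 2.24 ± 0.11 from Parent (limma adjusted p = 1.4e-05) and to 1.45 ± 0.11 from NC-1 (adjusted p = 0.000115). TYMP, the thymidine phosphorylase that cleaves thymidine, had 22.7 and 21.8 FPKM in Parent, 27.5 and 23.6 in NC-1, and 57.2 and 50.7 with miR-4711-5p, 2.42 times the Parent mean (adjusted p = 5.2e-05) and 2.11 times that of NC-1 (adjusted p = 0.000135). As TYMS was lower than in Parent, the ratio of TYMP to TYMS was 0.562 and 0.567 in Parent, 1.09 and 0.865 in NC-1 and 2.22 and 1.75 with miR-4711-5p. Of the 5 tested nucleotidases, which remove phosphate from nucleotides, 3 were higher in each miR-4711-5p comparison, beside 18.7% of all tested genes against Parent and 18.4% against NC-1, NT5C2 and NT5C3A in both, NT5E against Parent and NT5C against NC-1. Without the second NC-1 library or either miR-4711-5p library, 2 were higher than NC-1. NT5C3A, the pyrimidine nucleotidase, had 22.0 to 28.7 FPKM in the controls and 50.3 and 44.5 with miR-4711-5p (0.89 ± 0.12 and 0.79 ± 0.12, adjusted p = 0.001 and 0.00187). NT5C2, a purine nucleotidase, was higher by 0.24 ± 0.04 and 0.46 ± 0.04 (adjusted p = 0.00503 and 0.000286). NT5E, the ecto-nucleotidase CD73 that makes adenosine outside the cell, was higher than in Parent in both treated groups, with 67.9 and 69.0 FPKM in Parent, 105 and 98.1 in NC-1 and 96.1 and 89.3 with miR-4711-5p, and was not called against NC-1 (-0.13 ± 0.05).

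In the remaining groups, CTPS1, which makes CTP, was higher with miR-4711-5p than in both controls, at 81.2 and 81.7 FPKM against 70.2 to 71.6 in Parent and 56.7 to 58.9 in NC-1. Its log2 values were 0.20 ± 0.04 (limma adjusted p = 0.00891) and 0.49 ± 0.04 (adjusted p = 0.000189), and leaving out either miR-4711-5p library ended the call against Parent. NME2, a nucleoside diphosphate kinase, had the highest FPKM of the list, between 599 and 773, and was lower against both controls (-0.33 ± 0.05 and -0.16 ± 0.05, adjusted p = 0.00138 and 0.0275), with the call against NC-1 holding in 6 of 14 alternatives and lost without any 1 library but the second of NC-1. Another 8 genes of the list were higher than NC-1 without being higher than Parent, namely PRPS1, PFAS, DHODH, DCTPP1, NME1, SLC19A1, NT5C and SLC29A1, as was CAD. These 8 were named for their pattern after their values were seen, and 8.36% of all tested genes had it. PRPS1 was also called lower than Parent (-0.20 ± 0.06, adjusted p = 0.0309), and the other 7 were not called against Parent. This call of PRPS1 against Parent held in 7 of 14 alternatives. It was lost without either Parent library or either miR-4711-5p library. The call of PRPS1 against NC-1 held in 5 of 14 alternatives and was lost without any 1 library but the first of NC-1, and that of NT5C was lost without the second NC-1 library or either miR-4711-5p library.

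**Figure D4:**
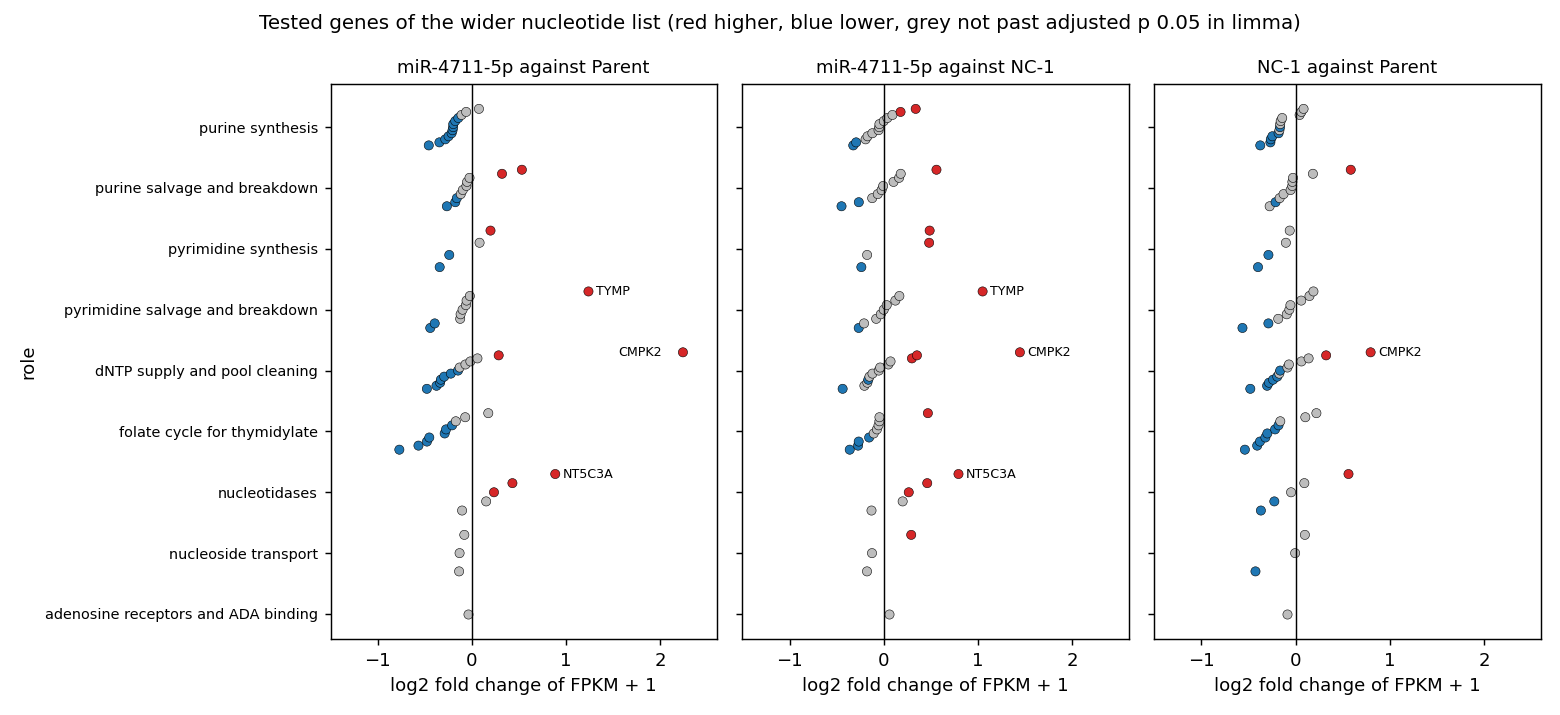
Limma log2 fold change of FPKM + 1 (x axis) of the 68 tested genes of the wider nucleotide list by role (y axis) in the 3 comparisons, red for higher, blue for lower and grey for not past an adjusted p of 0.05. Blue points number 31, 12 and 27 from left to right, and CMPK2, TYMP and NT5C3A stand apart on the right in both miR-4711-5p comparisons.

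Markers of dividing cells were measured beside these genes, since several of the 9 are expressed when DNA is copied. Relative to Parent, all 11 markers were lower with miR-4711-5p (median log2 fold change -0.37) and all 11 in NC-1 (-0.30). Of all tested genes, 24.7% and 15.1% were lower in these comparisons. Against NC-1, 4 were lower and 1 was higher with miR-4711-5p (median -0.14), beside 21.2% and 18.4% of all tested genes. Their summed FPKM was 871 and 884 in Parent, 677 and 689 in NC-1, and 653 and 658 with miR-4711-5p, and none was listed at 0. The median difference from the Parent mean, in log2, was -0.278 and -0.264 in the NC-1 libraries and -0.370 and -0.376 in the miR-4711-5p libraries for these markers. For the 9 genes it was -0.319 and -0.356, and -0.596 and -0.491. The part of cell division in the levels of RRM1, RRM2, TYMS, TK1, DUT and DCK was not tested.

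**Figure D5:**
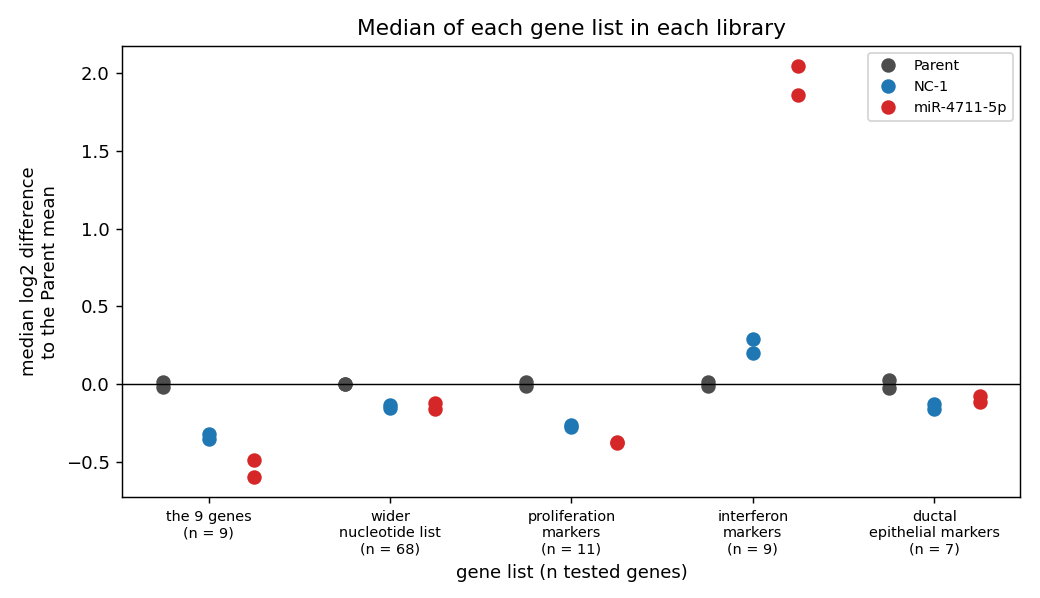
Median log2 difference to the Parent mean (y axis) of the genes of each list (x axis, with the number of tested genes) in each library. The 9 genes, the wider nucleotide list, the proliferation markers and the ductal epithelial markers were below 0 in all 4 treated libraries. Ductal epithelial markers were at -0.128 and -0.163 in NC-1 and at -0.075 and -0.116 with miR-4711-5p. For the wider nucleotide list these values were -0.135 and -0.156, and -0.162 and -0.119. The interferon markers lay between 0.199 and 0.290 in NC-1 and at 2.04 and 1.86 with miR-4711-5p.

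The promoters of the 9 genes were read from RefSeq (GRCh38.p14), from 250 bases before to 50 after each annotated start. They were read because RRM1, RRM2, TYMS, TK1, DUT and DCK were lower than Parent in both treated groups. Against NC-1, RRM2, TYMS and TK1 were not called. An E2F-type 8-mer (TTTCCCGC, TTTGGCGC, TTTGCCGC or TTTCGCGC, on either strand) was present in 3 of the 9 genes, TYMS, DUT and DCK, and in 3.31% of all 35116 windows. Of the 8975 tested genes with a window, 6.86% had one. The matches are in capitals, and positions are of the first base of the match relative to the start site. They lay at -39 in TYMS (window chr18:657603-657632), at -42 and -27 in DUT (chr15:48332144-48332173 and chr15:48332159-48332188) and at 22 in DCK (chr4:70993659-70993688), in genes of the plus strand. Read along the gene, the match of DUT at -27 is as listed, and the others are the reverse complement of a listed 8-mer.
TYMS at -39: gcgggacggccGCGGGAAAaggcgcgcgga
DUT at -42: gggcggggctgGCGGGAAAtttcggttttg
DUT at -27: gaaatttcggtTTTGGCGCgctccctgcgg
DCK at 22: gctgcctccgcGCGCCAAAgtcaaaccccg

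CCAAT, on either strand, was present in RRM1, RRM2, TK1, SAMHD1 and CAD, and in 34.6% of all windows and 43.5% of the tested genes with a window. RRM2 had 3 copies in 1 window at -123, -93 and -66, each followed by the letters GGGAAGGG, and TK1 had 2 in the opposite orientation. They are shown because of this repeat, from chr2:10122605-10122631, chr2:10122635-10122661 and chr2:10122662-10122688 on the plus strand.
RRM2 at -123: gcaaggcgcagCCAATgggaagggtcg
RRM2 at -93: gcatggcacagCCAATgggaagggccg
RRM2 at -66: gggcaccaaagCCAATgggaagggccg

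The interferon-type pattern GAAANNGAAA, on either strand, was in 3.57% of all windows and in 3.92% of the tested genes with a window. It was in 0 of the 9 genes, SAMHD1 included, which says only that these letters were not in the window. With so small a share over all genes, nothing is read from this count. Such matches are descriptions, and no binding was measured.

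The 5 genes whose values over the 6 libraries were most like those of ADA, by the Euclidean distance of log2(FPKM + 1) centred per gene, were SERPINB3 (distance 0.165), AKR1B10 (0.201), SPDEF (0.244), CHST14 (0.283) and GTF3A (0.321). SERPINB3, a protease inhibitor of squamous epithelia, had 43.4 and 46.2 FPKM in Parent, 48.4 and 53.8 in NC-1, and 14.0 and 15.2 with miR-4711-5p. AKR1B10, an aldo-keto reductase, had 138 and 150, 185 and 191, and 45.2 and 56.9 in the same order, so that, as for ADA, the NC-1 libraries were above the Parent libraries and the miR-4711-5p libraries below both. None of the 5 is an enzyme of nucleotide metabolism.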

How the data were processed

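Libraries were made from mRNA with a stranded kit and sequenced by the authors as 75-base single-end reads. The deposited values are FPKM per gene symbol, which, per the methods, the authors computed with Cuffnorm after mapping to hg19. Per the labels, the tools were TopHat2 2.1.1, Bowtie2 2.3.5.1, SAMtools 1.2 and Cufflinks 2.2.1, with Cuffdiff listed and not Cuffnorm, while the methods name earlier versions of TopHat, Bowtie2 and SAMtools, so the versions used are not settled; the annotation, strand option and normalization option are not given in the sources used here. Genes averaging 1 FPKM or more (12040) were fitted on log2(FPKM + 1) with limma 3.58.1 (R 4.3.3; eBayes with a trend, all 3 groups, 3 residual degrees of freedom, Benjamini-Hochberg, threshold 0.05, two-sided), which was tested on simulated data. An exact permutation test of 2 against 2 libraries cannot go below 0.333. Ratios are of mean FPKM. The 9 genes, the lists and the rule for named genes (the 9, up to 3 genes per role and direction called against both controls, relatives fixed by name, and the 5 genes most like ADA) were chosen with earlier results of these data known; some genes that the rule names are not reported here. Symbols were matched to GENCODE v44 on GRCh37 directly for 10599 genes and through RefSeq synonyms for 592. The alternatives were another pseudocount, filter, scale, set of samples or variance prior, a replicate block, and leaving out each library.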

Additional observations from a re-analysis of the deposited data

How the results depend on the processing

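For the 9 genes and the 68 tested genes of the wider list, no direction of a called difference was reversed. A scale set on genes of at least 10 FPKM, chosen after seeing the data, moved the median log2 fold change of all genes to 0.049, 0.017 and 0.041 (from -0.013, 0.004 and -0.010 for miR-4711-5p against Parent, against NC-1, and NC-1 against Parent). It turned the split of all genes from 18.7% higher and 24.7% lower to 25.3% and 18.9% against Parent, and from 12.1% and 15.1% to 16.6% and 9.98% in NC-1 against Parent. With it, 20 genes of the wider list in place of 31 were below Parent with miR-4711-5p, and the log2 fold change of ADA in NC-1 against Parent was 0.27. Without a filter, 7 of 81 genes in place of 12 of 68 were lower than NC-1, beside 11.7% of all genes in place of 21.2%. With a pseudocount of 0.1 the log2 fold change of ADA was -1.84 against Parent and -2.07 against NC-1. Leaving out 1 library at a time gave 15 to 28, 4 to 11 and 14 to 21 lower genes of the wider list in the 3 comparisons; a group left with 1 library is assumed to vary like the others. Other counts over the whole list moved by less than 1.5 times, while counts of single functions within it moved by more. The cause of these shifts was not tested. The group numbers 1 and 2 did not pair the libraries (correlations of deviations 0.061, 0.003 and -0.009), and with a replicate block 28, 12 and 24 genes of the list were lower and 9, 13 and 4 higher. TYMS against NC-1 kept its sign in 12 of 14 alternatives and was called in none of them. Depth in reads is unknown, which limits statements on genes near 0.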
